A study of Cavia porcellus with 13 samples.

Results

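Cell cycle and DNA replication genes were followed in guinea pig skin after tick bites. The set was given as 41 symbols, and 33 of them matched a gene in the deposited table by symbol, without regard to case. All 33 passed the filter on low values and were among 14979 tested genes of 26855 in the table. CCNE2, CDK1, CCNB1, AURKA, BUB1B, CENPE, NUSAP1 and MKI67 were not analysed here. By known role, 16 of the 33 act around the start of S phase or in DNA replication, 15 act in mitosis, and CCNA2 and UBE2T were kept apart from both groups.

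Skin RNA of Cavia porcellus was sequenced in 13 libraries, all labelled with day 4 after the bite (the unbitten ones too), to compare a tick bite in animals with different exposure histories. Strain, sex, age and tick species are not given in the labels. The groups were unbitten naive skin (3 libraries), skin bitten at a 1st exposure (3), bitten skin of animals labelled saliva immune (3), and bitten skin of animals labelled ticks 2 bites (2) or ticks 3 bites (2). How the saliva immune animals were immunized is not given. The titles carry the prefix CK1 (naive replicates 1 and 2, 1st exposure, saliva immune; 8 libraries) or EF19-5 (naive replicate 3, 2 bites, 3 bites; 5 libraries), which the labels do not explain. Each bitten group was therefore set against the naive skin of its own prefix, which for EF19-5 is 1 library. Whether each library is a different animal is not stated, so p-values here reflect only how much these samples scatter, part of which could be technical.

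A dividing cell first commits to S phase through E2F transcription factors and cyclin E. It then loads and fires the MCM helicase on replication origins, makes deoxynucleotides and copies its DNA. In mitosis, cyclin B with CDK1 and the PLK1 and Aurora kinases build the spindle, kinetochores attach chromosomes to it, and the anaphase-promoting complex ends the division by degrading mitotic proteins. In skin, dividing cells sit mainly in the basal epidermis and in the matrix of growing hair follicles, and immune cells that enter a bite can also divide. In a piece of whole skin, fewer dividing cells and less of a transcript per cell cannot be told apart.

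Values are TPM, a transcript's length-scaled share of the library, so levels can be compared between genes but each is a share of all the RNA in the biopsy. The skeletal muscle list took 9.55% and 16.6% of TPM in the CK1 naive libraries, 4.61% to 7.04% in 1st exposure, 2.38% to 10.3% in saliva immune, 2.36% in the EF19-5 naive library and 0.631% to 1.5% in the 2 and 3 bites libraries. Keratinocyte markers were present throughout, the basal list taking 0.654% to 1.83% of TPM. Read depth cannot be recovered from TPM and is unknown. Within a group and prefix, log2 values of library pairs correlated across genes at Pearson's r between 0.933 and 0.98 (genes are no replicates), and no library was identical to another. Pairs from different groups or prefixes correlated at r between 0.866 and 0.982, so the ranges overlap.

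On the TPM scale PCNA, the sliding clamp of the replication fork, was the most abundant of the 33, with 68.8 TPM in the lowest library, a median of 91.9 and 129 in the highest. UBE2C, the ubiquitin-conjugating enzyme of the anaphase-promoting complex, ranged from 36.8 to 87.9. CDC6, which loads the helicase, ranged from 3.20 to 6.84 and was the least abundant by median (5.09). KIF11, the motor that pushes spindle poles apart, had the widest range, 3.99-fold between its lowest and highest library. MCM5, a helicase subunit, had the narrowest, 1.61-fold. The summed TPM of the 33 genes was lowest in saliva immune replicate 2 (515.2), followed by the 1st exposure libraries (559.2, 572.4 and 665.1). It was 728.3 and 839.0 in CK1 naive skin, 733.4 and 795.9 in the other saliva immune libraries, and 853.3 in the EF19-5 naive library. The 2 bites libraries (874.1 and 890.7) and 3 bites libraries (959.2 and 990.3) stood highest.

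**Figure D1:**
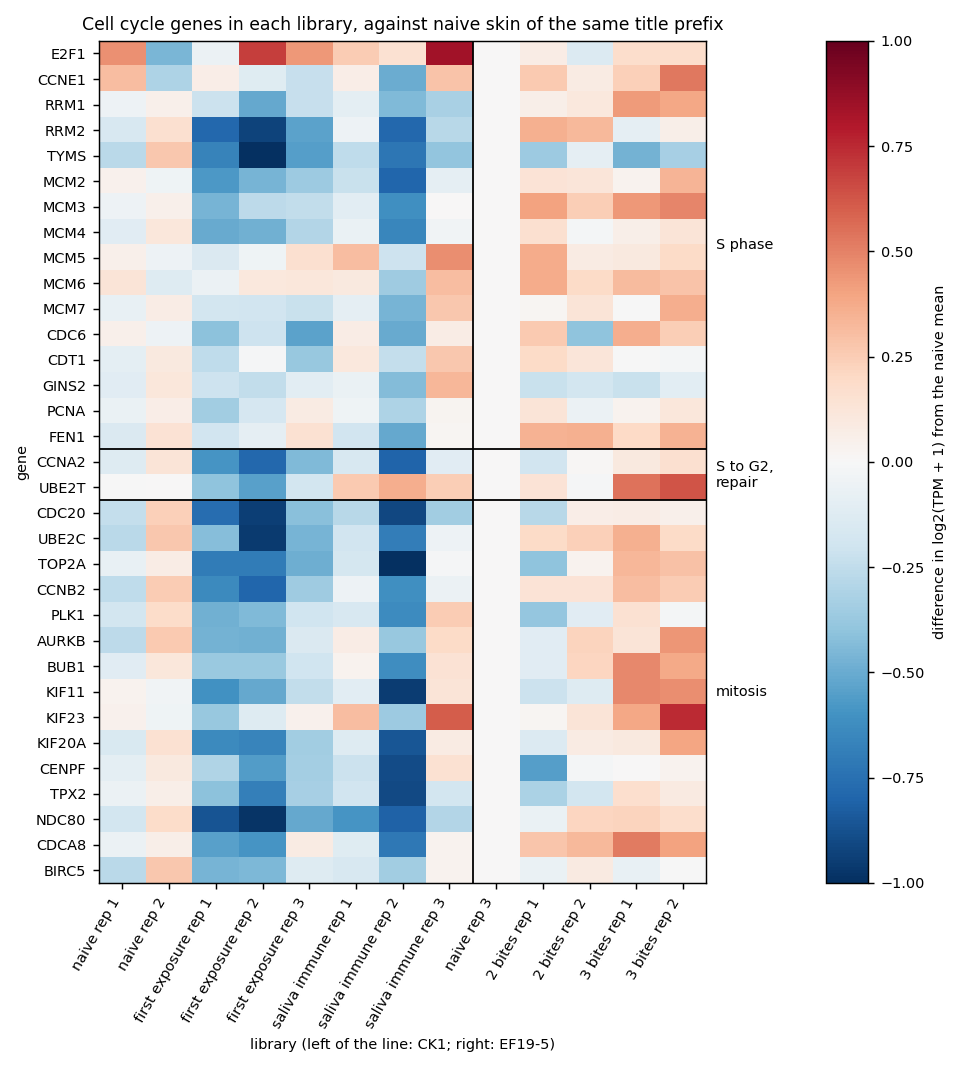
Difference of each gene (rows) in each library (columns) from the mean of the naive libraries with the same title prefix, on the log2(TPM + 1) scale, with colours capped at 1 in either direction. The 1st exposure columns and saliva immune replicate 2 are blue for most genes. E2F1 is an exception in 1st exposure replicates 2 and 3 and in saliva immune replicate 2. The 3 bites columns are mostly red, and naive replicate 3 is 0 by construction.

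The first comparison asked how a 1st tick exposure differs from naive skin. Cell cycle genes lay lower in 1st exposure skin, by a median log2 difference of -0.37 over the 33 genes against 0.14 over all tested genes, and 31 of 33 were lower where 35.5% of all tested genes were. For 21 of the 33, every 1st exposure library lay below both naive libraries, a pattern found in 14.1% of tested genes. Limma called 0 of the 33 at an adjusted p under 0.05 (5 of all tested genes, 0.0334%). At an unadjusted p under 0.05, 9 of the 33 were lower, against 4.49% of all genes, and 0 were higher.

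Among S phase genes, the deoxynucleotide enzymes had the lowest values, with a median log2 difference of -0.74 over 3 genes. RRM2, the regulated subunit of ribonucleotide reductase, stood at 14.3, 12.9 and 17.2 TPM in the 1st exposure libraries and at 22.6 and 28.5 in CK1 naive skin. The groups did not overlap, with a log2 difference of -0.75 (95% confidence interval -1.25 to -0.25, limma adjusted p = 0.237). TYMS, which makes thymidylate, stood at 24.3, 18.9 and 26.4 TPM against 32.4 and 47.3. It also showed no overlap, with a log2 difference of -0.74 (SE 0.218, adjusted p = 0.228). RRM1, the other reductase subunit, stood at 36.0, 29.1 and 35.7 TPM against 40.5 and 43.5, a log2 difference of -0.32 (interval -0.66 to 0.02 covering 0, adjusted p = 0.38).

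Replication proteins themselves lay closer to naive skin, with a median log2 difference of -0.19 over 11 genes, 10 of them lower. MCM2, a helicase subunit, stood at 19.9, 21.5 and 23.2 TPM in 1st exposure and 31.1 and 29.1 in naive skin (log2 difference -0.47, adjusted p = 0.363). MCM3 and MCM4 also lay below naive skin without overlap, at log2 differences of -0.32 and -0.42. Other subunits of the same 6-part ring lay near 0, with log2 differences of 0.05 for MCM6 and -0.01 for MCM5, and MCM7 differed by -0.19. MCM6 stood at 25.3, 28.5 and 28.6 TPM against 28.9 and 24.1, so its groups overlapped. PCNA differed by -0.14 (68.8, 78.1 and 93.0 against 83.7 and 91.9 TPM) and FEN1, the nuclease that trims Okazaki fragments, by -0.04. The licensing factor CDC6 differed by -0.38, its partner CDT1 by -0.22 and the helicase activator GINS2 by -0.18. Upstream of replication, E2F1 stood at 9.21, 16.2 and 13.4 TPM against 13.6 and 6.76, a log2 difference of 0.36 (interval -0.35 to 1.06, overlapping). CCNE1 (cyclin E1) differed by -0.09.

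Mitosis genes lay lower in 1st exposure skin by a median log2 difference of -0.45, and all 15 measured members had a lower mean. The 3 genes of mitotic exit and chromatin had a median of -0.63, the 4 mitotic kinases and cyclins of -0.37 and the 8 spindle and kinetochore genes of -0.42. NDC80, which anchors microtubules at the kinetochore, stood at 5.58, 5.05 and 7.39 TPM in 1st exposure and at 9.51 and 12.6 in CK1 naive skin. All 3 bitten libraries lay below both naive ones, and the log2 difference was -0.79 (interval -1.28 to -0.30, adjusted p = 0.226). CDC20, the activator of the anaphase-promoting complex, stood at 20.1, 17.7 and 25.8 TPM against 29.4 and 41.2 (log2 difference -0.70, adjusted p = 0.282). CCNB2 (cyclin B2, a partner of CDK1) stood at 10.5, 9.36 and 13 against 14 and 20.4 (-0.60, adjusted p = 0.319). Both were without overlap, although naive replicate 2 stood well above naive replicate 1 for these genes.

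TOP2A, the topoisomerase that untangles sister chromosomes, stood at 22.6, 22.6 and 26.4 TPM in 1st exposure and 35.5 and 39.3 in naive skin, a log2 difference of -0.63. UBE2C differed by -0.62, the spindle motor KIF20A by -0.55 and the spindle assembly factor TPX2 by -0.48, each with no overlap. The 3 measured parts of the chromosomal passenger complex, AURKB (-0.36), CDCA8 (-0.35) and BIRC5 (-0.34), overlapped with naive skin. The smallest difference was that of KIF23, a motor of the central spindle, at -0.16. CCNA2 (cyclin A2), which serves S phase and the entry into mitosis, stood at 18.7, 16.2 and 20.9 TPM against 26.1 and 31.5, a log2 difference of -0.61 (adjusted p = 0.297). Scaling by median of ratios, which took the median of all tested genes from 0.14 to 0.002, moved the S phase median from -0.20 to -0.36 and the mitosis median to -0.61. Without naive replicate 1 the S phase median was -0.31. Leaving out 1 library at a time gave S phase medians of -0.31 to -0.19 and mitosis medians of -0.62 to -0.34.

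**Figure D2:**
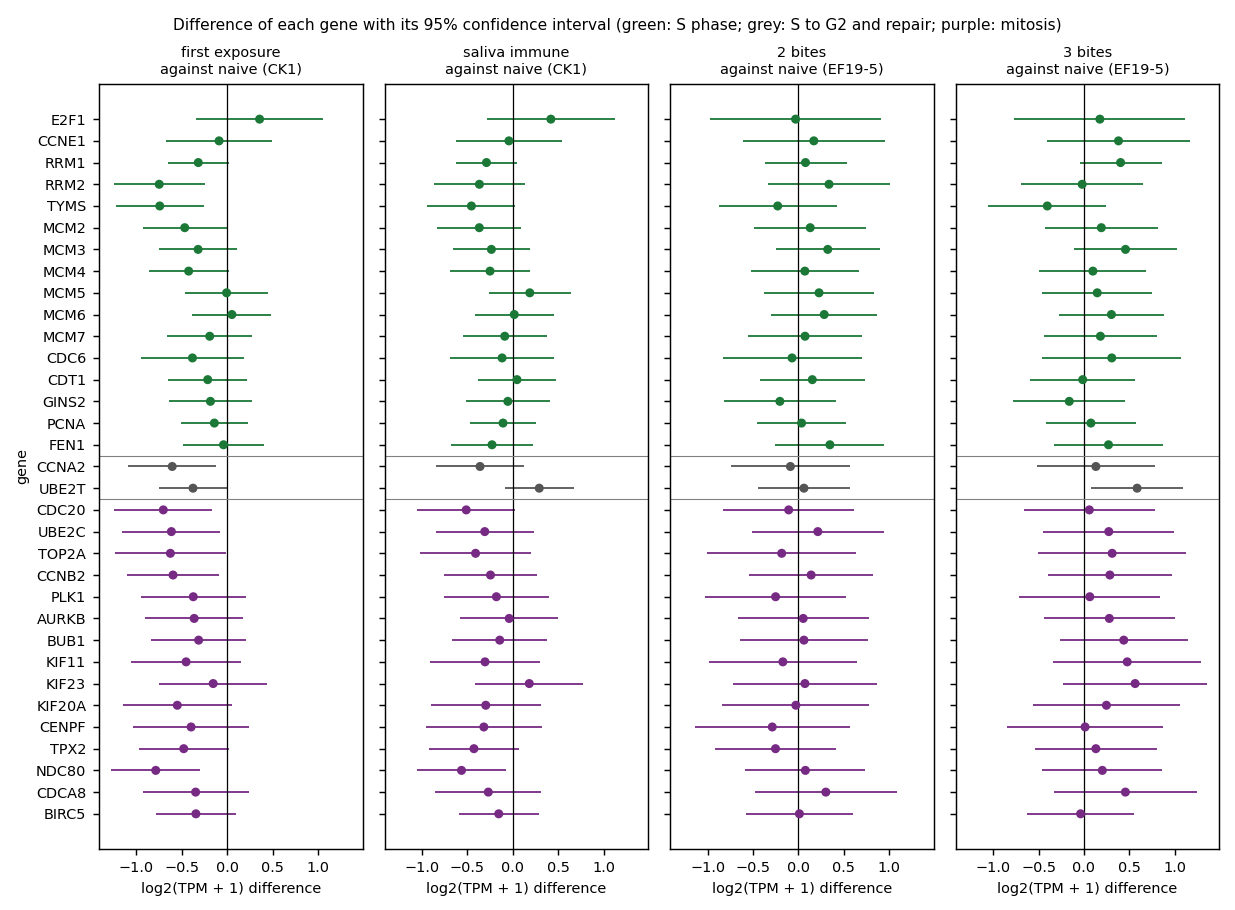
Log2(TPM + 1) difference of each gene (points) with its 95% confidence interval from limma (lines) in the 4 bitten groups against naive skin of the same prefix. In 1st exposure all 15 mitosis genes (purple) lie left of 0, while S phase genes (green) run from -0.75 for RRM2 to 0.36 for E2F1; intervals are wider in the EF19-5 panels, which rest on 1 naive library.

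S phase and mitosis genes were then set side by side within 1st exposure skin. The S phase median was -0.20 and the mitosis median -0.45, so S phase genes lay 0.25 nearer to naive skin on the log2 scale, and 14 of 15 mitosis genes lay below the S phase median. The 2 groups of genes overlapped, since RRM2 and TYMS lay as low as NDC80 and CDC20. By library, S phase genes exceeded mitosis genes by 0.24, 0.40 and 0.11 in 1st exposure, and by 0.10 and -0.10 in the naive libraries. The SD of this difference between libraries was 0.143 over the 3 bitten and 0.14 over the naive libraries, and 1st exposure replicate 3 stood next to naive replicate 1. The gap between the groups was 0.15 without naive replicate 2 and 0.16 without 1st exposure replicate 2.

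**Figure D3:**
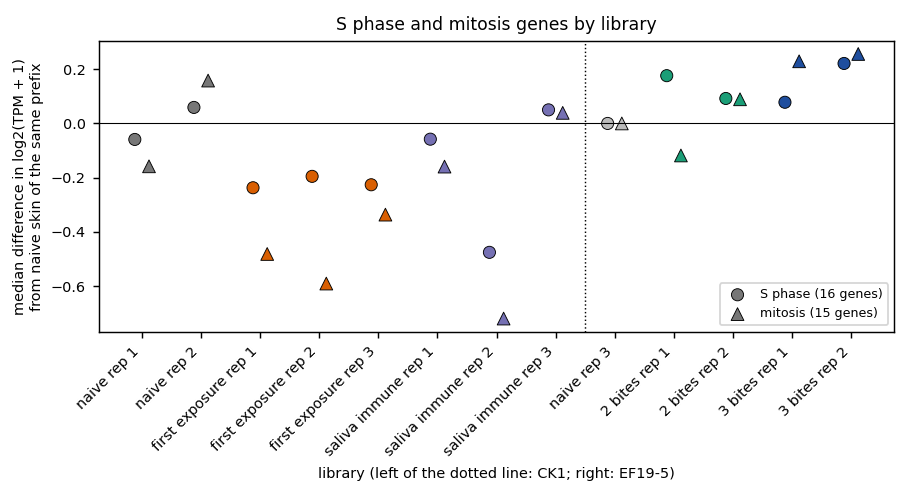
Median log2(TPM + 1) difference of 16 S phase genes (circles) and 15 mitosis genes (triangles) in each library from the naive mean of the same prefix. Triangles lie below circles in all 3 1st exposure libraries, saliva immune replicate 2 is lowest for both, and in the 3 bites libraries the triangles lie above the circles.

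Saliva immune skin was compared with the same CK1 naive libraries, which it shares with the 1st exposure comparison. Cell cycle genes lay lower by a median of -0.24 over the 33, with 27 of 33 lower (31.8% of all tested genes) and 5 of 33 below both naive libraries in every bitten library (6.22% of all). UBE2T alone lay above both, which 18.5% of all genes did. The S phase median was -0.11 and the mitosis median -0.30, or -0.28 and -0.46 with median-of-ratios scaling. Limma called 0 of the 33 (1 of all tested genes, 0.00668%), and NDC80 alone had an unadjusted p under 0.05, against 2.08% of all genes in that direction. NDC80 stood at 6.95, 5.83 and 8.76 TPM against 9.51 and 12.6, a log2 difference of -0.57 (interval -1.06 to -0.07, adjusted p = 0.383). CDC20 stood at 28.5, 18.1 and 27.1 TPM against 29.4 and 41.2 (-0.51, adjusted p = 0.45). TPX2 stood at 23.9, 14.2 and 24.1 against 26.3 and 28.7 (-0.43, adjusted p = 0.484).

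The S phase genes with the smallest p in saliva immune skin were TYMS, RRM1 and MCM2. TYMS stood at 32.6, 23.4 and 29.6 TPM against 32.4 and 47.3, which overlapped (log2 difference -0.46, adjusted p = 0.454). RRM1 stood at 39.1, 30.6 and 33.3 against 40.5 and 43.5 (-0.29, adjusted p = 0.483), and MCM2 at 25.6, 16.9 and 28.2 against 31.1 and 29.1 (-0.37, adjusted p = 0.519), both without overlap. RRM2 stood at 24.5, 14.3 and 20.8 TPM, overlapping with 22.6 and 28.5. E2F1 (0.42), MCM5 (0.19), CDT1 (0.05) and MCM6 (0.02) had positive log2 differences, and among mitosis genes KIF23 did (0.18).

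The saliva immune values rested largely on replicate 2. In that library 15 of 16 S phase genes and 15 of 15 mitosis genes lay below the naive mean, and its medians were -0.48 and -0.72. Replicate 3 had medians of 0.05 and 0.04 and replicate 1 of -0.06 and -0.16. Without replicate 2 the S phase median was 0.03, the mitosis median -0.05, and 19 of 33 genes lay lower. Without naive replicate 2 the mitosis median was -0.14 and the gap between S phase and mitosis genes 0.02, against 0.18 with all libraries. Leaving out both replicates, chosen after seeing the data, gave medians of 0.06 and 0.14, with 11 of 33 genes lower. Saliva immune replicate 2 had 10.3% skeletal muscle transcripts and the lowest hair follicle matrix share (0.467%) of all libraries, and the part of these tissues in its low values was not tested.

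Saliva immune and 1st exposure skin, both bitten, were also compared directly. Of the 33 genes, 31 were higher in saliva immune skin (54.5% of all tested genes), by a median of 0.19, and the S phase and mitosis medians were 0.10 and 0.19. Limma called 0 of the 33 and 0 of all tested genes (0%). The smallest p among S phase genes belonged to RRM2 (log2 difference 0.38, interval -0.07 to 0.83), CDT1 (0.26) and TYMS (0.29), and among mitosis genes to CCNB2 (0.35, -0.10 to 0.81), AURKB (0.32) and UBE2C (0.31), with overlapping libraries and an adjusted p of 1 for each. These medians rested on single libraries: the S phase median was -0.03 without saliva immune replicate 3 and 0.30 without replicate 2, and the mitosis median 0.06 and 0.42. Without 1st exposure replicate 3 the mitosis median was 0.30.

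UBE2T, the ubiquitin-conjugating enzyme of the Fanconi anaemia DNA repair pathway, departed from this order. Its TPM was 6.04, 6.54 and 5.96 in saliva immune, 3.43, 3.03 and 4.16 in 1st exposure and 4.86 and 4.87 in CK1 naive skin. Saliva immune libraries thus lay above and 1st exposure libraries below both naive ones, and UBE2T was the only member of the 33 whose saliva immune libraries all exceeded the 1st exposure ones (5.41% of all tested genes). The log2 difference between the bitten groups was 0.67 (SE 0.152, interval 0.33 to 1.01; unadjusted p under 0.05, as for 1.8% of all genes in that direction), which did not pass after adjustment (adjusted p = 1, and 0.435 to 1 over the alternatives). Saliva immune replicate 2, the lowest library for most of the set, was the highest of the 3 for UBE2T.

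**Figure D4:**
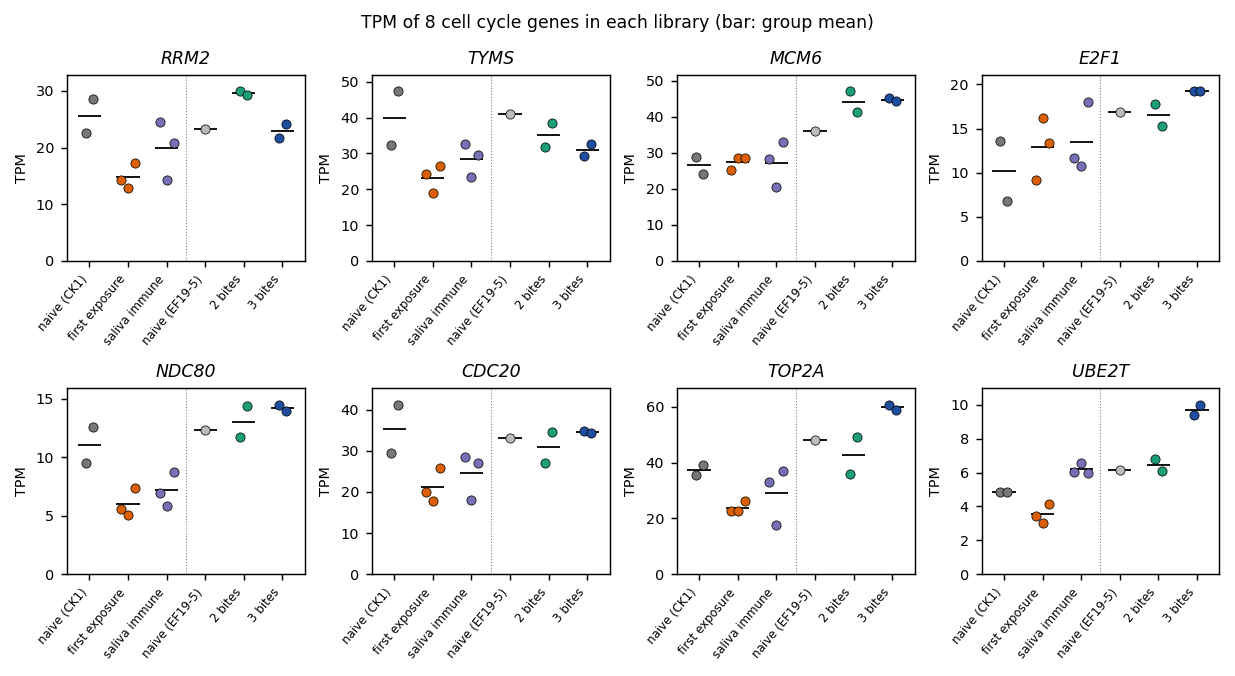
TPM of 8 cell cycle genes (y axes start at 0), each point a library and each bar a group mean, with CK1 groups left of the dotted line and EF19-5 groups right of it. RRM2, TYMS, NDC80, CDC20 and TOP2A are lower in 1st exposure than in both CK1 naive libraries, MCM6 and E2F1 overlap, and UBE2T is higher in saliva immune and in 3 bites skin.

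The EF19-5 libraries addressed repeated exposure. In 2 bites skin the set lay close to the naive library, with a median of 0.06 over the 33 genes against -0.06 over all genes, and 21 of 33 higher (42.2% of all tested genes). The S phase median was 0.10 and the mitosis median 0.01, or -0.01 with muscle genes removed. Limma called 0 of the 33 (2 of all, 0.0134%), and 0 of the 33 had an unadjusted p under 0.05, where 2.7% of all genes did so higher and 3.16% lower. Both bitten libraries exceeded the naive one for 14 of the 33 (28.6% of all genes) and lay below it for 6 (43.3%). FEN1 stood at 10.2 and 10.3 TPM against 7.82 in the naive library (log2 difference 0.35, interval -0.25 to 0.95). MCM3 stood at 25.8 and 23.1 against 19.3 (0.32), and RRM2 at 29.9 and 29.3 against 23.2 (0.34), adjusted p being 0.968 to 0.977 for these genes. These 3 S phase genes were higher in both libraries.

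Among mitosis genes of 2 bites skin, CDCA8 stood at 14.9 and 15.4 TPM against 12.1 (0.30), TPX2 at 26.6 and 29.3 against 33.4 (-0.25) and CENPF, a kinetochore protein, at 10.1 and 15.1 against 15.3 (-0.29), with adjusted p of 0.993 to 0.998. Mitosis genes differed between the libraries: 11 of 15 lay below the naive library in replicate 1 (median -0.12) and 4 of 15 in replicate 2 (median 0.09), whereas the S phase medians were 0.18 and 0.09. The gap between S phase and mitosis genes was therefore 0.29 in replicate 1 and 0.003 in replicate 2. Hair follicle matrix genes took 0.895% of TPM in replicate 1, 2.81% in replicate 2 and 2.49% in the naive library. The part of this tissue in the gap was not tested.

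In 3 bites skin the set lay higher, by a median of 0.20 over the 33 genes against 0.08 over all tested genes, with 28 of 33 higher (60.5% of all). Both libraries exceeded the naive one for 25 of the 33, against 41.1% of all tested genes, and both lay below it for 4 (24.2%). The S phase median was 0.18 and the mitosis median 0.27, with 14 of 15 mitosis genes higher and BIRC5 (-0.04) the exception. KIF23 stood at 16.8 and 21.8 TPM against 12.6 (log2 difference 0.56, interval -0.23 to 1.36). KIF11 stood at 39.4 and 38.9 against 27.9 (0.48), and BUB1, a spindle checkpoint kinase, at 16.2 and 15 against 11.3 (0.44). Adjusted p was 1 for each of these 3 genes, and their intervals covered 0.

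The S phase genes of 3 bites skin ran from -0.40 to 0.46, and the mitosis genes from -0.04 to 0.56. RRM1 stood at 55 and 53.6 TPM against 40.8 (0.40, interval -0.05 to 0.85) and MCM3 at 26.4 and 27.4 against 19.3 (0.46). TYMS stood lower, at 29.3 and 32.5 against 41.1 (-0.40), and RRM2 at 21.7 and 24.2 against 23.2 (-0.02). The libraries of RRM2 lay on both sides of the naive one, those of RRM1 above it. UBE2T stood at 9.39 and 10.0 TPM against 6.12, a log2 difference of 0.58 (interval 0.08 to 1.09). It was the only one of the 33 with an unadjusted p under 0.05 (1.65% of all genes in that direction), and its adjusted p was 1 (0.221 to 1 over the alternatives). Limma called 0 of the 33 and 1 of all tested genes (0.00668%). Without replicate 2 the S phase median was 0.08, and median-of-ratios scaling gave medians of 0.07 and 0.16.

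The number of bites was compared within EF19-5. Cell cycle genes were higher in 3 bites than in 2 bites skin for 27 of 33 (64.8% of all tested genes), by a median of 0.15 against 0.14 over all genes. The share was nearer to the background for S phase genes (11 of 16, median 0.04) than for mitosis genes (14 of 15, median 0.28). KIF11 stood at 39.4 and 38.9 TPM against 23.9 and 25.4 in 2 bites skin (log2 difference 0.65, interval -0.02 to 1.31, adjusted p = 0.47). TOP2A stood at 60.8 and 59.0 against 36.1 and 49.4 (0.49, adjusted p = 0.564), and KIF23 at 16.8 and 21.8 against 12.8 and 13.9 (0.49, adjusted p = 0.559). All 3 were higher in both 3 bites libraries. RRM1 stood at 55 and 53.6 TPM against 42.5 and 43.9 (0.32, adjusted p = 0.503), and CDC6 at 6.84 and 6.22 against 6.31 and 3.60, which overlapped (0.38, adjusted p = 0.641). RRM2 went the other way, at 21.7 and 24.2 against 29.9 and 29.3 (-0.36, adjusted p = 0.608). UBE2T stood at 9.39 and 10.0 against 6.81 and 6.08 (0.52, adjusted p = 0.39) and was the only member with an unadjusted p under 0.05 (8.12% of all genes in that direction). Of the 33 genes, 15 were higher without overlap (35.6% of all tested genes), 2 were lower (11.5%) and limma called 0 (0% of all). Median-of-ratios scaling, which moved the median of all genes to -0.03, gave an S phase median of -0.14, a mitosis median of 0.10 and 18 of 33 genes lower. The mitosis median was 0.15 without 2 bites replicate 1 and 0.40 without replicate 2, and the gap between S phase and mitosis medians, -0.23, was then -0.06 and -0.40. Without 3 bites replicate 2 the S phase median was -0.01.

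The difference between repeat bites (mean of 2 and 3 bites) and a 1st exposure, each relative to its own naive skin, was tested as 1 contrast. It was positive for 32 of 33 genes (38.5% of all tested genes), with a median of 0.51 against -0.10 over all genes, E2F1 (-0.28) being the exception. The S phase median was 0.36 and the mitosis median 0.60. For 7 of the 33 the unadjusted p was under 0.05, against 0.821% of all genes in that direction, and limma called 0 (0% of all). NDC80 differed by 0.93 (interval 0.15 to 1.71), RRM2 by 0.91 (0.12 to 1.69), UBE2C by 0.86, CCNB2 by 0.81, MCM3 by 0.71, UBE2T by 0.70 and RRM1 by 0.56, each with an adjusted p of 1. The contrast rests on naive replicate 3 alone for EF19-5, and whatever else differs between the prefixes cannot be told apart from exposure history.

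Further genes of the pathway, listed by role apart from the set, were counted in the same fit. Of 37 other mitosis genes, 36 were lower in 1st exposure (median -0.35), 31 in saliva immune (-0.19) and 24 in 2 bites skin (-0.11). In 3 bites skin 32 were higher (0.23). Of all 14979 tested genes, 5319, 4766 and 8586 were lower in the same order, and 9060 were higher in 3 bites skin. The medians over all tested genes were 0.14, 0.14, -0.06 and 0.08. NEK2, a centrosome kinase, stood at 5.59 ± 0.982 TPM in 1st exposure (SD, n = 3) and 11.2 ± 2.46 in CK1 naive skin (n = 2), a log2 difference of -0.88 (adjusted p = 0.175). CKAP2L, a spindle protein, stood at 16.1 ± 1.53 TPM in 3 bites skin (n = 2) and 6.83 in the naive library (log2 difference 1.12, adjusted p = 1). Of 34 other replication genes, 27 were lower in 1st exposure (median -0.16), 19 in saliva immune (-0.03) and 17 in 2 bites skin (-0.01), and 28 were higher in 3 bites skin (0.15). TK1, the thymidine salvage kinase, stood at 16.4 ± 1.34 TPM in 1st exposure and 23.4 ± 2.22 in CK1 naive skin (-0.49, adjusted p = 0.304).

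Genes listed as G1 and related regulators, and cell cycle inhibitors, lay nearer to 0. Of 14 D-type cyclins, G1 kinases, E2F factors and related regulators, 8 were lower in 1st exposure (median -0.02). These 14 are not all specific to G1, since FOXM1, MYBL2 and LIN9 are among them. Of 13 cell cycle inhibitors 6 were lower (0.07), where 35.5% of all tested genes were (0.14). FOXM1, a transcription factor of mitosis genes, stood at 10.3 ± 1.52 TPM in 1st exposure and 14.9 ± 1.98 in naive skin (-0.50, adjusted p = 0.376), while CCND3 (cyclin D3) stood at 84.2 ± 11.0 and 68.6 ± 1.88 (0.28, adjusted p = 0.482). In 3 bites against 2 bites skin, 11 of the 13 inhibitors were higher (median 0.36), where 64.8% of all tested genes were (0.14). Among these inhibitors, CDKN1B (p27) stood at 70.1 ± 18.8 against 42.0 ± 0.343 TPM (0.70, adjusted p = 0.354). Limma called 0 genes of these 4 lists in the 7 comparisons. At an unadjusted p under 0.05, 6 of 37 mitosis and 3 of 34 replication genes were lower in 1st exposure (4.49% of all tested genes), and 2 mitosis genes in saliva immune skin (2.08%). In 3 bites against 2 bites skin, 6 mitosis genes, 3 of 13 inhibitors and 1 replication gene were higher (8.12%). Higher too were 2 mitosis genes in 3 bites against naive skin (1.65%), 2 replication genes in saliva immune against 1st exposure (1.8%), and 1 mitosis and 1 replication gene in repeat bites against 1st exposure (0.821%). The 4 lists had 0 such genes in 2 bites skin.

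Marker lists of the tissues that hold dividing cells were measured in the same libraries. In 1st exposure all 10 basal keratinocyte genes were higher than in CK1 naive skin (median 0.64), while the cell cycle genes were lower. Of 16 hair follicle matrix genes 10 were higher (0.11), near the background of 9658 of 14979 tested genes (0.14). The basal share was 1.21%, 1.76% and 1.46% of TPM in 1st exposure and 1.27% and 0.654% in CK1 naive skin. In saliva immune skin the basal median was 0.29 and the hair follicle median -0.24. In 2 and 3 bites skin the basal medians were 0.31 and 0.65 and the hair follicle medians -0.71 and -0.45. Of 27 skeletal muscle genes, 18, 18, 22 and 24 lay lower in 1st exposure, saliva immune, 2 bites and 3 bites skin. Their medians were -0.87, -0.78, -1.65 and -0.96 in that order. Of all 14979 tested genes, 5319, 4766, 8586 and 5847 lay lower in these groups. With the muscle genes removed and TPM rescaled, the S phase and mitosis medians were -0.31 and -0.56 in 1st exposure and 0.16 and 0.26 in 3 bites skin.

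Fibroblast genes lay lower together with the cell cycle genes in 1st exposure, 7 of 7 with a median of -0.52 (35.5% of all tested genes). In saliva immune against 1st exposure skin 7 of 7 lay higher (0.54), as did 54.5% of all tested genes. Against naive skin, 4 of 7 were lower in saliva immune (-0.10), 5 in 2 bites (-0.30) and 6 in 3 bites skin (-0.55). The fibroblast share of TPM was 0.171% to 0.302% in 1st exposure, 0.222% to 0.359% in saliva immune and 0.218% and 0.361% in CK1 naive skin. All 11 macrophage genes lay higher in 1st exposure, saliva immune and 2 bites skin, with medians of 0.53, 1.48 and 1.2, and 7 of 11 in 3 bites skin (0.29), where the medians over all tested genes were 0.14, 0.14, -0.06 and 0.08. Adipocyte genes lay higher in 1st exposure and saliva immune skin (medians 1.97 and 1.94, 8 of 8 genes each) and near naive skin after 2 and 3 bites (-0.08 and -0.11). Of 7 neutrophil genes, 7, 7, 7 and 5 lay higher in the 4 bitten groups in the same order (medians 0.54, 1.03, 1.35 and 0.48), and of 7 T cell genes 7, 7, 6 and 5 (0.65, 0.75, 0.86 and 0.28). The 4 tested B and plasma cell genes were mixed, from -1.75 to 1.36 in 1st exposure, and 3, 3, 3 and 2 of them lay higher (medians 0.40, 0.39, 0.30 and -0.01). Of all 14979 tested genes, 9658, 10200, 6328 and 9060 lay higher in these 4 groups. The T cell list took at most 0.00359% of TPM in any library and the neutrophil list at most 0.0114%, and the neutrophil marker MPO was listed at 0 in 13 of 13 libraries. Limma called 0 genes of these lists, and the part of any of these cells in the cell cycle values was not tested.

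**Figure D5:**
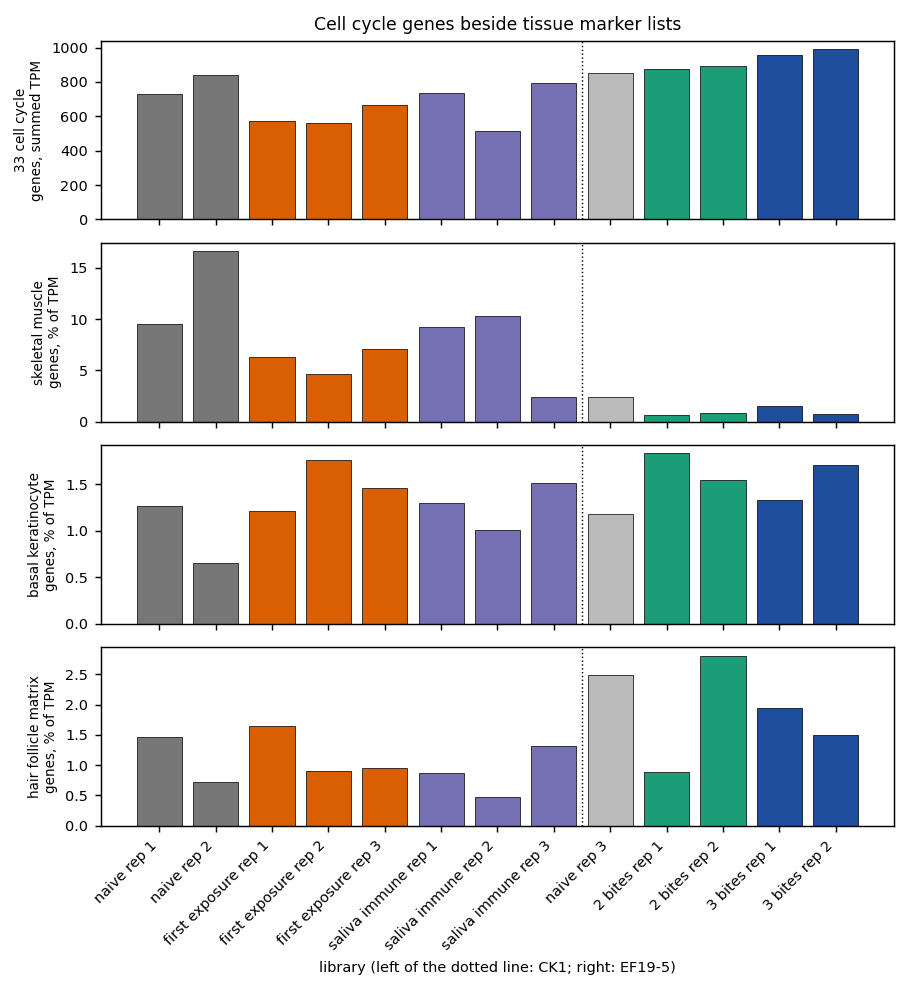
Summed TPM of the 33 cell cycle genes (top) and the share of TPM, in percent, taken by skeletal muscle, basal keratinocyte and hair follicle matrix lists in each library (bars, y axes from 0). Naive replicate 2 joins a high cell cycle sum (839.0 TPM) with the highest muscle share (16.6%) and the lowest basal share (0.654%).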

How the data were processed

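Expression is given in TPM computed by the authors, deposited as a table of 26855 genes (18254 with a symbol) whose 13 columns match the library titles. Per the submitters' processing notes, Trimmomatic, StringTie and DESeq were used, with no role or version stated. Aligner and build: not given in the sources used here. Genes reaching 1 TPM in 2 or more libraries were tested. Limma 3.58.1 in R 4.3.3 was fitted to log2(TPM + 1) with a mean for each group within a title prefix (7 residual degrees of freedom), an intensity trend and two-sided Benjamini-Hochberg adjustment over all tested genes. Differences on this scale understate those of low genes. The fit was tested on simulated data with added differences larger than any found for the members. That test does not show how well differences of the size reported here are detected. A list is described by counts and its median, with no test. The members and lists were chosen with earlier results of these data known. Named in full were the 3 S phase and 3 mitosis genes with the smallest p per comparison, a fixed panel, and up to 2 genes per further list; other members are named by role. Comparisons with the same naive libraries are not independent. Alternatives changed the pseudocount, filter, scaling, weights, prefix term, samples and list membership. Promoter motifs were not analysed here.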

Additional observations from a re-analysis of the deposited data

How the results depend on the processing

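Limma called 0 of the 33 genes in every comparison and alternative, except that UBE2T passed in repeat bites against 1st exposure (count 1, adjusted p = 0.0499, range over the alternatives up to 1) when the title prefix was left out. In that setting the naive libraries cancel out of this contrast. It then sets bitten EF19-5 libraries directly against bitten CK1 libraries, so exposure history and prefix cannot be told apart. Over all tested genes the number called went from 5 to between 1 and 81 in 1st exposure, 1 to between 1 and 8 in saliva immune, 2 to between 1 and 254 in 2 bites, 1 to between 1 and 30 in 3 bites, and 0 to at most 1, 4 and 24 in the other 3 comparisons. Median-of-ratios scaling gave S phase medians of -0.275 in saliva immune and -0.143 in 3 bites against 2 bites skin, and quantile normalization -0.311 in saliva immune and 0.519 in repeat bites against 1st exposure. With array weights (0.445 to 2.65, estimated from bite and prefix) the gap between S phase and mitosis medians was 0.13 in 1st exposure and 0.044 in saliva immune. Without naive replicate 2 and saliva immune replicate 2 together it was 0.147 and -0.079, with saliva immune medians of 0.059 (S phase) and 0.138 (mitosis), and an S phase median of 0.3 against 1st exposure. Leaving out 1 library gave gaps of 0.15 to 0.32 in 1st exposure, 0.016 to 0.25 in saliva immune, 0.003 to 0.29 in 2 bites and -0.40 to -0.057 in 3 bites against 2 bites, saliva immune mitosis medians of -0.44 to -0.045, and S phase medians of -0.034 to 0.3 in saliva immune against 1st exposure. The cause was not tested. In repeat bites against 1st exposure the gap was -0.34 to -0.15. Naive replicate 3 could not be left out of the EF19-5 comparisons. No paired analysis was possible because the labels give no replicate numbers shared between groups. TPM keeps no depth, and groups of 1 to 3 libraries limit the precision.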

Other observations

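Relative to basal keratinocyte transcripts, the cell cycle set differed most between the naive libraries. The summed TPM of the 33 genes equalled 5.73% and 12.8% of the summed basal list in CK1 naive skin (replicates 1 and 2) and 7.23% in the EF19-5 naive library. The 1st exposure libraries stood at 4.71%, 3.18% and 4.56%, the saliva immune libraries at 5.64%, 5.09% and 5.28%, the 2 bites libraries at 4.78% and 5.78% and the 3 bites libraries at 7.24% and 5.78%. On this ratio saliva immune replicate 2, the lowest library by summed TPM, lay between the other saliva immune libraries and the 1st exposure ones. The ratio of summed mitosis to summed S phase TPM was 0.677 and 0.813 in CK1 naive skin, 0.642, 0.548 and 0.644 in 1st exposure, 0.680, 0.603 and 0.705 in saliva immune skin, 0.737 in the EF19-5 naive library, 0.616 and 0.762 in 2 bites, and 0.840 and 0.772 in 3 bites skin.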
